A study of Mus musculus with 6 samples.

Results

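Expression of 10 ligand genes, namely the 9 chemokine genes Ccl5, Ccl2, Ccl7, Ccl20, Cxcl1, Cxcl5, Cxcl10, Cxcl16 and Cx3cl1 and the growth factor gene Csf1, was examined in a mouse colorectal tumor line and a mutant made from it. The genes were taken by symbol from 24346 gene symbols, and all 10 had a value in each sample. They were selected on earlier results of the same M8 and parental samples, so their differences between the lines are given as descriptions, with no p-value, and a count of these genes past a threshold supports nothing. The parental CT26.mMR1 cells are CT26 tumor cells carrying a retroviral mouse MR1 gene, which encodes the molecule that presents metabolites to MAIT cells. M8 is a single clone of these cells, obtained after exposure to the mutagen ENU. In the paper, mutants were screened with a MAIT cell reporter line, and M8 was chosen among those that enhanced its activation, for higher surface MR1. Both lines thus overexpress MR1, and a feature of M8 cannot be told apart from a feature of 1 clone. The sample titles of both lines carry the tag cl9, which the labels do not explain. RNA was sequenced from 3 biological replicates of each line.

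Chemokines are small secreted proteins that attract leukocytes through G protein-coupled receptors. They are classed by the spacing of the first conserved cysteines, which are adjacent in CC chemokines, separated by 1 residue in CXC chemokines and by 3 in CX3CL1. Ccl5 attracts T cells and monocytes, Ccl2 and Ccl7 attract monocytes, Ccl20 attracts cells bearing CCR6, Cxcl1 and Cxcl5 attract neutrophils, and Cxcl10 is an interferon-inducible ligand of CXCR3. Cxcl16 and Cx3cl1 are made as membrane-anchored proteins that can be shed. Csf1 is not a chemokine but supports the survival and growth of macrophages. Tumor cells are a known source of several of these ligands.

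The cysteine codons were located in the coding sequences of GENCODE M21 on GRCm38. Each gene was searched only for the spacing of the class in its symbol, so that spacing was set in advance. A CC gene, 2 CXC genes and the CX3C gene are shown here because they carry the spacing that defines the classes. Capitals mark the codons of the first conserved cysteines.
Ccl5: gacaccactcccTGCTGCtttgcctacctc
Cxcl1: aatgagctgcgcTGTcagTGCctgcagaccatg
Cxcl10: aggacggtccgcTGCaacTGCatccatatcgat
Cx3cl1: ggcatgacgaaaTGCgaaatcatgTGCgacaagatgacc
Every chemokine gene held a match to the spacing searched for. The codons were adjacent in Ccl5, Ccl2, Ccl7 and Ccl20, 1 codon apart in Cxcl1, Cxcl5, Cxcl10 and Cxcl16, and 3 codons apart in Cx3cl1.

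Ccl5 and Csf1 stood highest among the 10 genes in both lines. Levels are given in FPKM, a unit of reads scaled for gene length and library size, so that genes can be set beside each other. In parental cells, Csf1 was at 159 ± 9.45 FPKM (SD, n = 3) and Ccl5 at 12.0 ± 1.05 FPKM (SD, n = 3). Below them came Cxcl1, Cxcl10, Ccl2 and Ccl7, and the replicates of Cxcl1 and Cxcl10 overlapped. In M8, the replicates of Csf1, of Ccl5 and of the next gene, Cxcl10, did not overlap in level, whereas Cxcl10, Cxcl1 and Ccl2 each overlapped the next gene in the order, down to Ccl7. Cxcl5, Ccl20, Cxcl16 and Cx3cl1 had a mean below 1 FPKM in each line and are reported as low. The gene just inside that limit was Ccl7, with a mean of 1.45 FPKM over the 6 samples, and the gene just outside it was Cxcl5, with 0.507 FPKM.

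**Figure D1:**
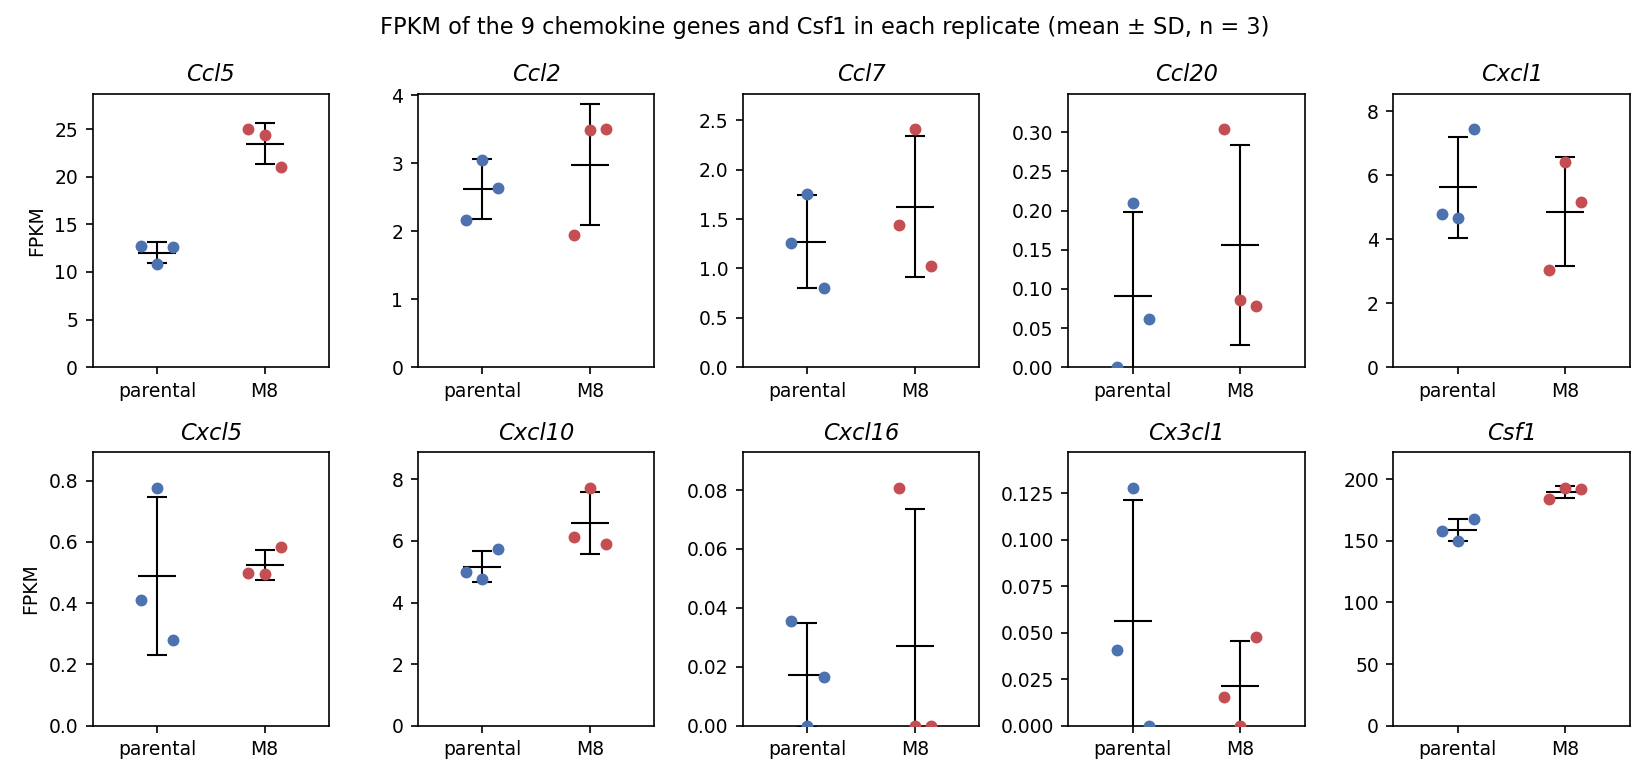
FPKM of each gene in the 3 parental and 3 M8 replicates, on a linear axis from 0 that differs between panels. Points are replicates, the long bar is the mean and the error bar the SD, cut at 0. M8 values lie above all parental values for Ccl5, Cxcl10 and Csf1.

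Ccl5 had the largest ratio between the lines among the 6 genes with a mean of at least 1 FPKM. Its FPKM was 12.7, 10.8 and 12.6 in the parental replicates and 25, 24.4 and 21.0 in the M8 replicates. The lines did not overlap, and the M8 mean of 23.4 ± 2.15 (SD, n = 3) was 1.95 times the parental mean. On the scale of log2(FPKM + 1) the difference was 0.91 with a standard error of 0.079 and a 95% interval of 0.73 to 1.09. In these bulk samples, more cells expressing the gene and more RNA per cell cannot be told apart. Of the 10597 genes with a mean of at least 1 FPKM, 15 had a larger log2 fold change. This rank and the interval are descriptions, since the same contrast chose Ccl5. The gene lies on chromosome 11 at chr11:83525778-83530518 (GRCm38.p6), inside the span of the long noncoding gene Gm32650, which the files do not list.

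Csf1 was also higher in M8 but by a smaller factor. Its FPKM was 158, 150 and 168 in parental cells and 184, 193 and 192 in M8, with no overlap. The M8 mean was 190 ± 4.80 FPKM (SD, n = 3), a ratio of 1.19. The log2 difference was 0.26 with a standard error of 0.049, and it was 0.15 after quantile normalization.

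Cxcl10 showed a difference near the spread between replicates. Its FPKM was 5.0, 4.75 and 5.73 in parental cells and 6.12, 7.73 and 5.91 in M8, so that the highest parental and the lowest M8 value were close. The ratio of means was 1.28, and the log2 difference was 0.30 with a standard error of 0.10. In whole reads recovered from the FPKM steps, the parental replicates held 113, 102 and 139 Cxcl10 reads and the M8 replicates 121, 135 and 113, while the M8 libraries were less deep. Per unit of relative depth this gave 117 reads in parental cells (95% Poisson interval 105 to 130) and 148 in M8 (133 to 164), intervals that cover counting error only. Cxcl10 overlaps Art3 on the opposite strand, which was listed at 0 in 5 of the 6 samples.

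Ccl2, Ccl7 and Cxcl1 had replicates of the lines that overlapped. Ccl2 was at 2.17, 3.05 and 2.64 FPKM in parental cells and at 1.95, 3.49 and 3.50 in M8, with a log2 difference of 0.12 and a 95% interval of -0.25 to 0.49. Ccl7, which lies beside Ccl2 on chromosome 11, was at 1.26, 1.75 and 0.806 FPKM in parental cells and at 1.44, 2.41 and 1.02 in M8. Its log2 difference was 0.19, with an interval of -0.27 to 0.66. The neutrophil attractant Cxcl1 was at 4.78, 4.65 and 7.44 FPKM in parental cells and at 3.04, 6.40 and 5.16 in M8, a log2 difference of -0.19 with an interval of -0.68 to 0.29. These intervals hold both higher and lower levels in M8.

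The low genes rested on few reads. Cxcl5 was at 0.410, 0.777 and 0.280 FPKM in parental cells and 0.499, 0.495 and 0.582 in M8, from 53 and 48 reads in all. Ccl20 had 4 parental and 6 M8 reads, Cxcl16 3 and 4, and Cx3cl1 12 and 4. Per unit of relative depth, Cx3cl1 had 3.97 reads in parental cells (95% Poisson interval 2.05 to 6.94) and 1.61 in M8 (0.437 to 4.11). These intervals overlapped and cover counting error only, and the difference was not tested. The membrane-anchored chemokines Cxcl16 and Cx3cl1 were near the detection limit in both lines.

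Of the 10 genes, 6 passed the filter of a mean of 1 FPKM, and 3 of these (Ccl5, Csf1 and Cxcl10) were counted as higher in M8 by limma with Benjamini-Hochberg adjustment over all genes, at an adjusted p below 0.1. Over all genes tested, 21.2% were counted as higher and 16.5% as lower, and none of the 6 was counted as lower. Every M8 replicate exceeded every parental one for 24.8% of the genes tested and lay below every one for 20.4%, against 3 and 0 of the 6. Nothing is read from these counts, since this contrast chose the genes. The count of 3 also moved with the processing: it was 2 without parental replicate 1, parental replicate 2 or M8 replicate 2 and with no filter on low values, where Cxcl10 dropped out, and 4 without M8 replicate 1, where Ccl2 was added. In all, 2250 genes were higher and 1745 lower, a balance that turned to 1658 and 2209 when the values were rescaled to TPM and to 1848 and 2154 with upper-quartile scaling.

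Ccl5 took a larger share of the chemokine transcripts in M8. Summed over 41 chemokine genes, FPKM was 37.4 ± 2.0 in parental cells and 49.8 ± 2.18 in M8 (SD, n = 3 each). Ccl5 made up 35.3, 29.5 and 31.8% of that sum in the parental replicates and 51.2, 46.6 and 43.5% in M8. Without Ccl5 the sum was 25.4 ± 1.95 FPKM in parental cells and 26.4 ± 2.24 in M8 (SD, n = 3 each), and its replicates overlapped. The other large contributor outside the 10 was Ccl25, a thymus and gut chemokine, at 7.94 FPKM in parental cells and 7.28 in M8. Of the 41 chemokines, 6 had a mean of at least 1 FPKM and 19 were listed at 0 in all samples.

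**Figure D2:**
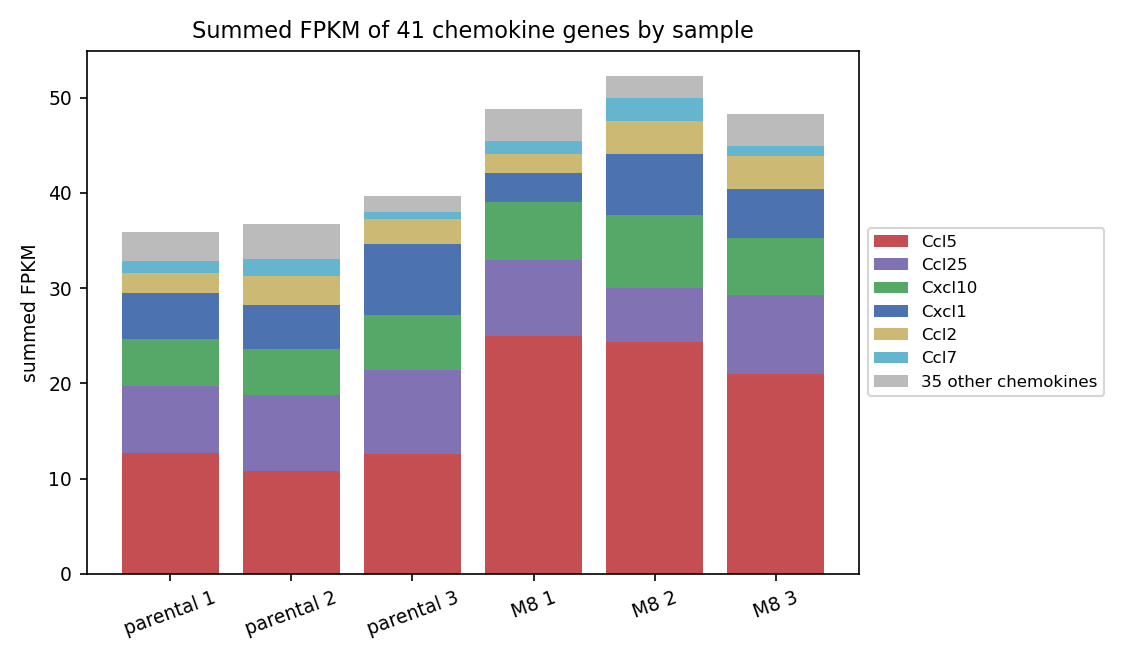
Summed FPKM of 41 chemokine genes in each sample, with the 6 genes at a mean of at least 1 FPKM in colour and the other 35 in grey. The M8 columns are taller, and Ccl5 takes 43.5 to 51.2% of them against 29.5 to 35.3% in parental cells.

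Neighbours of these genes in the chemokine clusters were low. Beside Ccl5, Ccl9 was at 0.424 FPKM in parental cells and 0.613 in M8, and Ccl3 was at 0 in all samples. Ccl4 was listed at 0 in the 3 parental replicates and at 0.297, 0.112 and 0.410 FPKM in M8, below the level tested, and Ccl6 was below 1 FPKM with overlapping replicates. Beside Ccl2 and Ccl7, Ccl11, Ccl12, Ccl8 and Ccl1 were listed at 0 in every sample. Next to Cxcl10, Cxcl9, another CXCR3 ligand, was at 0 and Cxcl11 was at 0.166 FPKM in parental cells and 0.104 in M8. Around Cxcl5 and Cxcl1, Ppbp, Pf4, Cxcl3, Cxcl15 and Cxcl2 had means below 1 FPKM.

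Receptors for these ligands were scarce in the tumor cells. Ccr2, Ccr3, Cxcr3 and Csf1r, receptors of Ccl2, Ccl7, Cxcl10 and Csf1, were listed at 0 in every sample. Ccr1, which binds Ccl5 and Ccl7, was at 0.969 ± 0.126 FPKM in parental cells and 1.0 ± 0.188 in M8 (SD, n = 3 each), and Cxcr2, the receptor of Cxcl1 and Cxcl5, was at 0.400 and 0.368 FPKM. Ccr6, Cxcr6 and Cx3cr1 were below 0.1 FPKM on average in each line. The decoy receptor Ackr3 was the single one of 27 receptor genes tested and was not counted as changed, with a log2 difference of -0.15.

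Among transcription factors known to act on chemokine genes, 17 of 20 were tested, of which 9 rose and 2 fell, beside 21.2% and 16.5% of all genes tested, and the median log2 fold change was 0.12 against 0.00687. With TPM the counts were 6 and 5, with quantile normalization 6 and 3, and without M8 replicate 3 there were 6 higher. These lists, like the genes themselves, were chosen with earlier results known. Cebpb, a factor of inflammatory genes, rose by 0.72 with a standard error of 0.14 (limma, adjusted p = 0.00498), from 55.4 ± 11.9 FPKM in parental cells to 90.8 ± 9.66 in M8 (SD, n = 3 each), without overlap. Irf7, an interferon regulatory factor, rose by 0.38 with a standard error of 0.037 (limma, adjusted p = 0.000267). The 5 NF-kappaB subunit genes did not all differ in the same direction. Nfkb1 rose by 0.18. Nfkb2 and Rela rose by 0.13 each, but both calls were lost after quantile normalization (limma, adjusted p = 0.646 and 0.32) and with TPM (limma, adjusted p = 0.125 and 0.149), and that of Nfkb2 also with upper-quartile scaling (limma, adjusted p = 0.112). Relb had a log2 difference of -0.18, with every M8 value below every parental one (limma, adjusted p = 0.128), and passed the threshold with TPM and upper-quartile scaling (limma, adjusted p = 0.0802 and 0.092). Rel had a difference of 0.08 with overlapping replicates. Fos, an AP-1 subunit, was at 3.78, 1.86 and 1.72 FPKM in parental cells and at 1.01, 0.734 and 1.14 in M8, a log2 difference of -0.77 with a standard error of 0.20. The difference was -0.51 without parental replicate 1 and -1.20 on the scale of log2(FPKM + 0.1). The M8 mean of Fos, 0.961 FPKM, is below the limit of 1. Fos thus entered the test, and the count of 2 that fell, through its parental values, and its difference is given as a description.

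**Figure D3:**
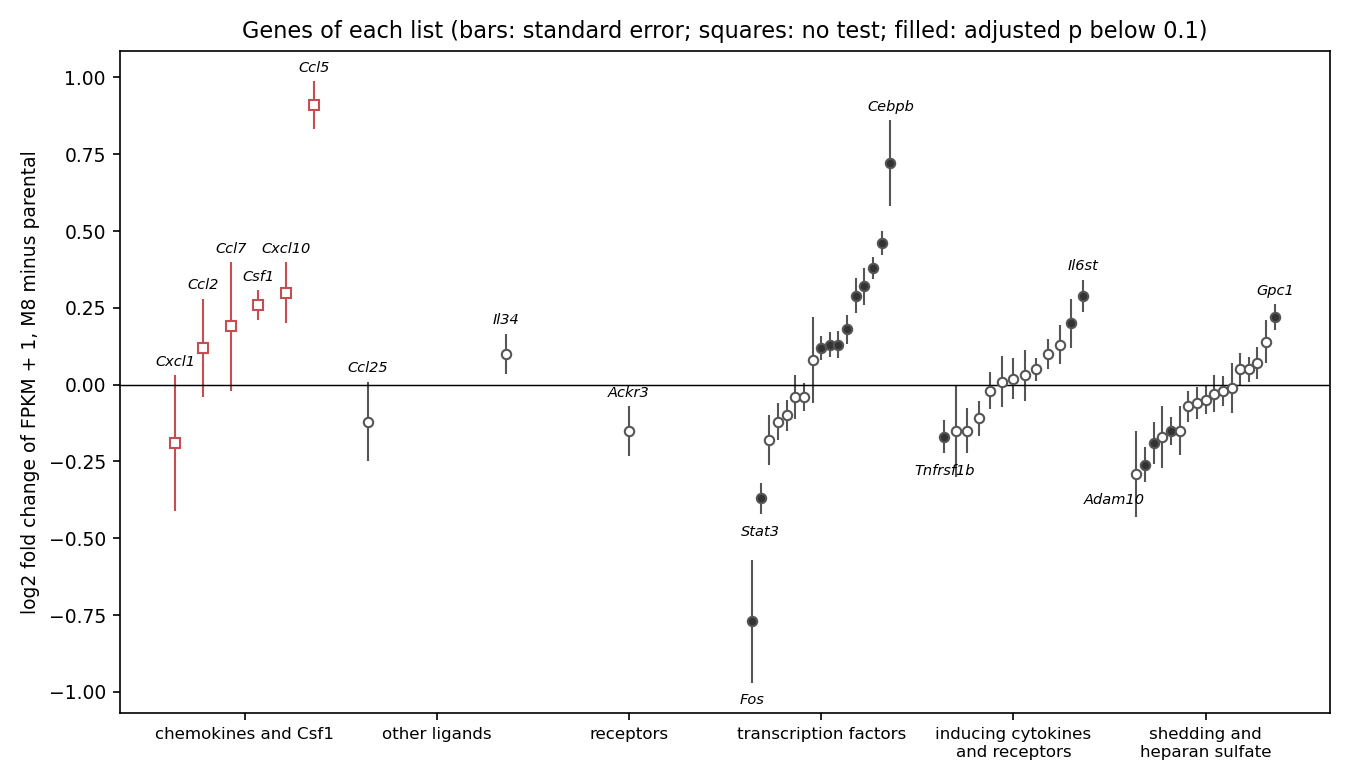
Log2 fold change of FPKM + 1, M8 minus parental, for the genes tested in each list. Bars are standard errors. Squares are the chemokines and Csf1, shown without a test, and filled circles have an adjusted p below 0.1. Ccl5 at 0.91 stands above the other ligands and Cebpb at 0.72 above the other transcription factors, and the lowest point is Fos, which passed the filter through its parental values.

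Of 20 genes for cytokines that induce chemokines and for their receptors, 13 were tested, 2 rose and 1 fell, shares below the 21.2% and 16.5% over all genes tested, and the median log2 fold change was 0.02. Il6st, the shared signalling chain of the IL-6 family, rose by 0.29 (limma, adjusted p = 0.00395). Il6ra, its IL-6 binding partner, rose by 0.20 (limma, adjusted p = 0.0862) with overlapping replicates, and this call was lost in 5 of the 6 fits that left out a replicate. Tnfrsf1b, a TNF receptor, fell by 0.17 on the log2 scale (limma, adjusted p = 0.0394), and its adjusted p was 0.127 without parental replicate 2 and 0.137 without M8 replicate 1.

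Genes for shedding and for heparan sulfate, which holds chemokines at cell surfaces, were tested for 17 of 23 members, of which 1 rose and 3 fell, against 21.2% and 16.5% of all genes tested, and the median log2 fold change was -0.05. The share that fell was about that over all genes. Adam10, a protease that sheds Cx3cl1 and Cxcl16, fell by 0.26 on the log2 scale (limma, adjusted p = 0.0104), from 19.9, 20.2 and 18.3 FPKM to 16.9, 16.3 and 15.3. Gpc1, a heparan sulfate core protein, rose by 0.22 (limma, adjusted p = 0.00554), and by 0.11 after quantile normalization (limma, adjusted p = 0.0688). The syndecan Sdc2 fell by 0.15 and the xylosyltransferase Xylt2 by 0.19 (limma, adjusted p = 0.031 and 0.0638). The Sdc2 call was lost without M8 replicate 1, and the Xylt2 call in 4 of the 6 fits that left out a replicate.

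The patterns closest to that of Ccl5 over the 6 samples were sought among 8301 genes with a mean of at least 5 FPKM, by the root mean square difference of log2(FPKM + 1) from the parental mean. Zbp1, a sensor of nucleic acids, was closest at 0.074, with 54.1, 46.0 and 51.7 FPKM in parental cells and 93.9, 90.7 and 87.0 in M8. It was followed by the immunoproteasome subunit gene Psmb10 at 0.093, Serpinf1 at 0.11, and Parp12 and Gbp3 at 0.16 each. This is a description over 6 samples of 2 lines.

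**Figure D4:**
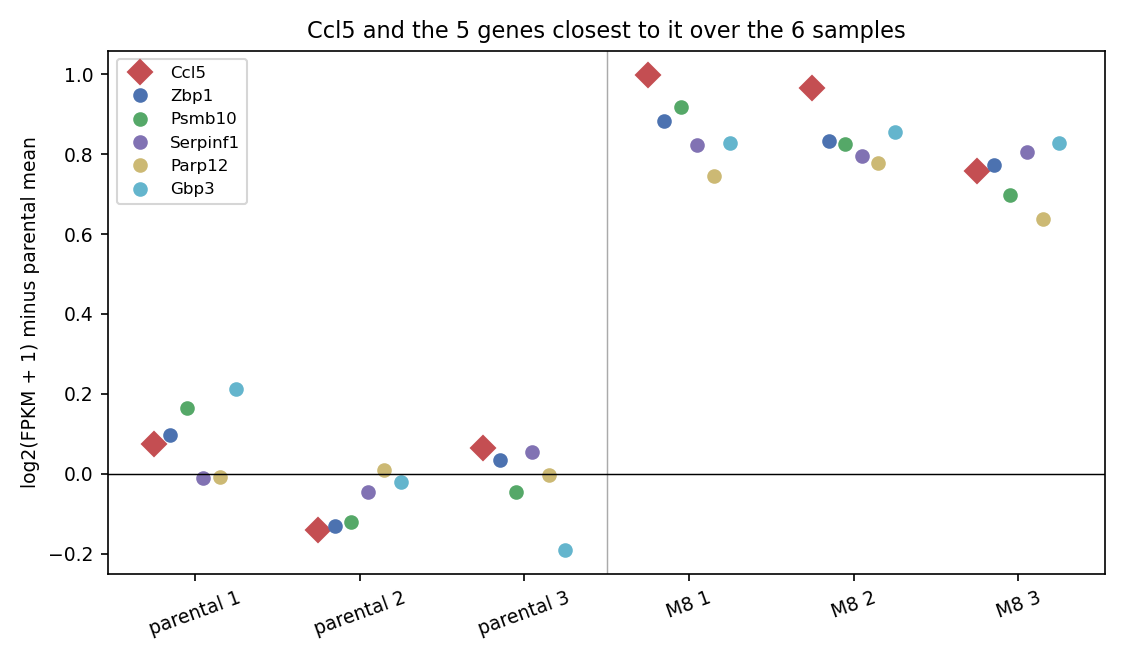
Log2(FPKM + 1) minus the parental mean for Ccl5 (diamonds) and the 5 genes closest to it, in each sample. All 6 genes lie near 0 in parental cells, whose mean was subtracted, and higher in M8, as the choice by closeness to Ccl5 requires.

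The promoter table of RefSeq (GRCm38.p6) held 5 of the 10 genes, namely Ccl20, Csf1, Cxcl1, Cxcl10 and Cx3cl1. Shown are the 250 bases before the start of Cxcl10 (chr5:92348890-92349139, minus strand), Csf1 (chr3:107760470-107760719, minus strand) and Cxcl1 (chr5:90890995-90891244, plus strand), since these 3 were the expressed ones. Capitals mark matches, on either strand, to the core of the interferon-stimulated response element (GAAA, any 2 bases, GAAA), to the NF-kappaB consensus and to the AP-1 site (TGANTCA).
Cxcl10: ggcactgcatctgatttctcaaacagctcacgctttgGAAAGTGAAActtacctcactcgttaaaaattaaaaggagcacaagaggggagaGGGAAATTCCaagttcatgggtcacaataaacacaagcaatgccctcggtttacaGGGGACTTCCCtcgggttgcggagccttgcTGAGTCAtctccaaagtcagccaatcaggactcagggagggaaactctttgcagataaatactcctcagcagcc
Csf1: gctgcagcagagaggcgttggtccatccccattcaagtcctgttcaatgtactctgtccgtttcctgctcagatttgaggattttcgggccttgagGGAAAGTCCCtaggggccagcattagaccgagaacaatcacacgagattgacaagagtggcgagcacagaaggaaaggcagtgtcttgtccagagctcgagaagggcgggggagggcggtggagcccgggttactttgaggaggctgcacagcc
Cxcl1: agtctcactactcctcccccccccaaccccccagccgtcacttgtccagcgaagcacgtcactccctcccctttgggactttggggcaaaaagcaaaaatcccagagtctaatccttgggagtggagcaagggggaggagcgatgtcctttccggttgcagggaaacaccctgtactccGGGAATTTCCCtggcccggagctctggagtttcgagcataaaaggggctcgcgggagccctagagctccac
The Cxcl10 window held an interferon element at -213, NF-kappaB matches at -159 and at -104 and -103, the latter overlapping each other, and an AP-1 match at -74, counted from the start. Csf1 held an NF-kappaB match at -154, and Cxcl1 overlapping ones at -71 and -70. Of 32851 promoters, 2.98% held the interferon element, 7.25% the NF-kappaB consensus and 6.75% the AP-1 site. A match is a description of the letters and not a site of binding.

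Markers of lymphocytes, macrophages and endothelial cells were near 0, whereas fibroblast markers were mixed, with high collagen genes in both lines. Defining genes of lymphocytes (Cd3e, Cd8a, Ms4a1) and macrophages (Adgre1, Csf1r, C1qa) were at 0 in all samples, and the 10 lymphocyte markers summed to 0.189 to 0.597 FPKM in parental cells and 0.0807 to 0.274 in M8, and the 10 macrophage markers to 0.530 to 0.584 and 0.251 to 0.476. Endothelial markers summed to at most 0.265 FPKM. The 8 fibroblast markers summed to 676 to 720 FPKM in parental cells and 673 to 705 in M8. The largest were the collagen genes Col1a2, at 487 FPKM in parental cells and 467 in M8, Col1a1 at 88.3 and 93.2, and Col3a1 at 79.5 and 87.1. Postn was at 0 in all samples, Lum at 0.92 and 0.433 FPKM, and Pdgfra at 3.44 and 2.29. On the log2 scale Pdgfra and Dcn fell by 0.43 and 0.38 and Pdgfrb rose by 0.25 (limma, adjusted p = 0.00903, 0.0245 and 0.00787). Of the 8 epithelial markers, Epcam, Cdh1 and Krt19 were at 0, and Krt8, Krt7 and Vil1 had means below 1 FPKM in each line. Krt18 was at 32.5 FPKM in parental cells and 36.4 in M8 with overlapping replicates. Krt20 fell by 0.50 on the log2 scale, from 17.4 to 11.9 FPKM (limma, adjusted p = 0.00438). The part of these marker differences in the chemokine values was not tested. Mr1, overexpressed in both lines, was at 1081 ± 51.0 FPKM in parental cells and 1055 ± 34.7 in M8 (SD, n = 3 each), with overlapping replicates. These values are RNA, whereas the paper reported higher MR1 protein on the surface of M8. Depth relative to parental replicate 1 was 0.948 to 1.072 in parental cells and 0.772 to 0.875 in M8.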

How the data were processed

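RNA was sequenced as stranded, poly(A)-selected libraries of single reads. The authors mapped the reads to mm10 and deposited FPKM values per gene symbol, made with Cuffdiff 2.2.1. The submitters' processing notes also name TopHat2 2.1.1, Bowtie2 2.2.8 and SAMtools 0.1.18. The annotation and strand setting are not given in the sources used here. The members and lists were chosen with earlier results of these data known. limma 3.58.1 in R 4.3.3 (lmFit, eBayes with trend) was fitted on log2(FPKM + 1) for the 10597 genes whose mean FPKM reached 1, with Benjamini-Hochberg adjustment and a threshold of 0.1, and was tested on simulated data. The study's own test on read counts was not repeated. Fold changes on this scale understate low genes.

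Whole reads were recovered where all 6 depth-scaled values of a gene were multiples of 1 step within 0.02 reads, which held for 3803 of 5495 low genes (69.2%) and for 8 of the 10 genes. Ccl5 and Csf1 were not resolved. A looser tolerance, tried for Ccl5 after its values were seen, resolved it but also 2.33% of 1500 genes of similar level, and it was not used. Replicates differed by more than sampling noise (chi-square per gene 2.61 to 3.57). Genes were named by a rule: the 10 members, chemokines next to them, their receptors, the 4 called genes of each list with the largest changes, the 5 genes most like Ccl5, and Mr1. A few genes that this rule covers are not reported here. Nfkb1, Nfkb2, Rela, Relb, Rel, Ackr3, Ccl25 Krt18, Krt20, Pdgfra, Pdgfrb, Dcn, other marker genes and, in a plot, Stat3 and Il34 were named after their values were seen. A comparison of the encoded proteins was not made. Alternatives covered the pseudocount, filter, scaling, threshold, replicate block and each replicate left out.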

Additional observations from a re-analysis of the deposited data

How the results depend on the processing

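Ccl5 kept a higher level in M8 with a log2 difference of 0.84 to 0.98 over 16 alternatives, and Csf1 with 0.15 to 0.30, the lowest after quantile normalization. Cxcl10 ranged from 0.19, without M8 replicate 2, to 0.36, and Ccl2 from 0.02 to 0.32, the highest without M8 replicate 1. The count of these genes higher in M8 was 2 to 4 with a replicate left out, and 2 with no filter or an adjusted p below 0.05. Ccl7 was -0.01 to 0.37 and Cxcl1 -0.38 to 0.05. Requiring a fold change of 1.5 left 42 genes higher and 74 lower, 1 of the 10 genes (Ccl5), 1 transcription factor in each direction, and 0 inducers or processing genes in either direction. With each replicate left out, the genes higher numbered 1591 to 2100 and the genes lower 1142 to 1681, the lowest without M8 replicate 1. Over these fits receptors lower were 0 to 1, transcription factors lower 2 to 4, inducers higher 1 to 2 and lower 0 to 2, processing genes higher 1 to 2 and lower 1 to 6. With no filter on low values 1 other ligand was higher. Transcription factors lower were 1 with a mean of at least 5 FPKM, and 5 with TPM and with upper-quartile scaling. Inducers higher were 1 with no filter, TPM, upper-quartile scaling or an adjusted p below 0.05. The cause of these changes was not tested. The sample titles number the replicates but state no pairing between the lines. Deviations of replicates of the same number had r of 0.10, -0.11 and -0.03, and those of different numbers -0.13 to 0.18, which cannot settle pairing. With the replicate number as a block 2171 genes were higher and 1688 lower, and 4 transcription factors were lower. Genes with few reads, such as Cxcl16, are limited by depth.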
